A study of Homo sapiens with 12 samples.

Results

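The S100 genes described here are S100A2, S100A4, S100A6, S100A7, S100A8, S100A9, S100A10, S100A11, S100A14 and S100A16, protein-coding genes of the S100 cluster on the long arm of chromosome 1. They were chosen by name, and all 10 were found among the 61533 gene entries of every library. The libraries came from 4 lines derived from HMLE, which are breast epithelial cells of human origin made immortal by telomerase and by SV40 antigens. The CT83 line carried a CT83 construct, the HORMAD1 line a HORMAD1 construct, the double line both constructs, and the control line a control construct. All 4 lines went through puromycin selection. CT83 is a cancer/testis gene, and the HORMAD1 protein sits on the axis of meiotic chromosomes. Polyadenylated RNA was sequenced from 3 libraries of each line, 12 in all. The question put to these lines was the function of either transgene in HMLE and a possible cooperation of the pair.

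Each construct was represented by 1 line, so a transgene and a difference between lines cannot be told apart. The labels do not state that the 3 libraries of a line were separate cultures, so the spread behind each p-value may be technical. Library totals ran between 9898845 and 14159740 expected counts. HORMAD1 and CT83 had 0 counts in all libraries of lines without them, and all 6 libraries that should hold each transgene did. The basal keratins KRT5, KRT14, KRT17 and KRT6A, TP63, the simple keratins KRT8 and KRT18, EPCAM and CDH1 were present in all libraries, as were the luminal factors ELF3 (7.85 to 17.5 CPM, the count divided by the library total and scaled) and GATA3 (8.46 to 16.1 CPM). KRT19, also luminal, was near 0 (0.169 to 1.49 CPM). HORMAD1 replicate 1, CT83 replicate 3 and control replicate 2 had the most positive trends of level on transcript length, so longer transcripts were relatively higher in them. S100 values without these 3 libraries are given below. In bulk RNA, fewer cells that express a gene and less RNA per cell cannot be told apart.

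S100 proteins are small EF-hand proteins. Most work as dimers that change shape when they bind calcium and then hold on to a partner protein. S100A10 is the exception that no longer binds calcium and is held by annexin A2. S100A8 and S100A9 form calprotectin, an antimicrobial complex that neutrophils carry and that stressed or inflamed epithelium also makes. S100A2 is a gene of basal epithelial cells that p53-family factors can induce, and S100A4 is known for its link to cell motility and mesenchymal cells. S100A7 (psoriasin) is made by inflamed skin and by some breast lesions.

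S100A2 and S100A14 stand here for the high and variable members, and S100A11 for the steady one. S100A9 stands for the low members, of which it was the highest. The stretches before 4 transcription starts of these genes are shown. They are RefSeq sequences of GRCh38.p14, read 5′ to 3′ on the gene's own strand and ending before the first annotated exon base in GENCODE 29. Capitals mark matches, on either strand, to the AP-1 motif TGANTCA, the GC box GGGCGG or the TATA box TATAAA.
S100A2, chr1:153565866-153566094, minus strand, bases -250 to -22 from the start: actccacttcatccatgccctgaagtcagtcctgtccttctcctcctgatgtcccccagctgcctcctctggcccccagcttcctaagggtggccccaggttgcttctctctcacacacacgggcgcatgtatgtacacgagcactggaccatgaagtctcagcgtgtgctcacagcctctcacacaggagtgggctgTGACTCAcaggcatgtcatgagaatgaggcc
S100A14, chr1:153616356-153616575, minus strand, bases -250 to -31: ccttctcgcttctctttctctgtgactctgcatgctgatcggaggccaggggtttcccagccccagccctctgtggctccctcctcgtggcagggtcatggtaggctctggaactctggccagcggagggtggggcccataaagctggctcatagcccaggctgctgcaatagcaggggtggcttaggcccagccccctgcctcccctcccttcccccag
S100A11, chr1:152037036-152037254, minus strand, bases -250 to -32: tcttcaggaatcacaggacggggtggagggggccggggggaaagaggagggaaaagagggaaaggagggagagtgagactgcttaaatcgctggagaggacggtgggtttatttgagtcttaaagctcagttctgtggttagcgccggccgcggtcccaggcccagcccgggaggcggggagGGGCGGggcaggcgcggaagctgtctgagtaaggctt
S100A9, chr1:153357604-153357853, plus strand, bases -250 to -1: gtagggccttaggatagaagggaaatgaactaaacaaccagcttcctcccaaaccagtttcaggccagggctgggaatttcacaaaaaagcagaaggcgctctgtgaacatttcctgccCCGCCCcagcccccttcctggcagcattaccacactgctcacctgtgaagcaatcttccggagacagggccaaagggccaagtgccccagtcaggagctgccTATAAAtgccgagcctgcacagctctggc

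The S100A2, S100A14 and S100A11 stretches lie in introns of longer GENCODE 29 transcripts of the same genes, and the S100A9 stretch lies outside any annotated gene. The S100A2 window held an AP-1 match, with its first base at -52, and it was the only 1 of the 14 windows of these genes in RefSeq to hold one. Among 35116 windows of 250 bases before human starts, 6.57% held that motif. The S100A9 window held a TATA box at -29. In all, 5 of the 14 windows, from 4 of the 10 genes, held one, against 10.7% of all windows. The S100A8 windows among these overlap and hold the same TATA box, which is thus counted more than once. GC boxes were found in 5 of the 14 windows and in 42.6% of all windows. A C/EBP motif (TTGCNNAA) was in 1 of the 14 windows and in 9.05% of all. The S100A14 stretch held none of these letters. Matches describe the letters of the window, and no binding was measured here.

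S100A2 was the most abundant of the genes. It had 1739, 1795 and 1494 normalised CPM in the CT83 libraries, 1034, 1385 and 1565 in the HORMAD1 libraries, 2228, 1968 and 1650 in the double libraries, and 1505, 1373 and 1679 in the control libraries. Of the 15616 genes tested it ranked 47 by mean CPM. The lowest library was HORMAD1 replicate 1 and the highest was double replicate 1, a 2.15-fold range. All 3 double libraries lay above all 3 HORMAD1 libraries, while every other pair of lines overlapped.

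To compare levels between genes, CPM was divided by the length of each gene's joined exons. In control cells S100A2 reached 969 ± 97.9 CPM per kb and S100A11 928 ± 11.7 (SD, n = 3), and their libraries overlapped. S100A14 at 396 ± 4.27 and S100A16 at 373 ± 28.4 CPM per kb also overlapped. S100A6 followed at 331 ± 14.1 and S100A10 at 296 ± 11.3 CPM per kb, each without overlap with its neighbours. A gap of more than 10-fold separated these 6 from S100A9 at 13.4 ± 1.51, S100A4 at 7.4 ± 0.665, S100A8 at 0.966 ± 0.385 and S100A7 at 0.0996 ± 0.0866 CPM per kb.

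The order was similar in the other lines, with a few neighbours exchanged. In the CT83 line S100A2, at 1069 ± 102 CPM per kb, stood above S100A11, at 909 ± 21.6 (SD, n = 3), without overlap. In the double line S100A2, at 1244 ± 184, likewise stood above S100A11, at 909.5 ± 18.9. In the HORMAD1 line S100A11, at 898 ± 39.2 CPM per kb, ranked above S100A2, at 848 ± 172, with overlapping libraries. With the longest transcript as the length in place of joined exons, that order turned, at 1028 CPM per kb for S100A11 and 1331 for S100A2. By that length S100A14 ranked 5 in every line, behind S100A16 and S100A6. The summed level of the 10 genes was 4253 ± 259 CPM in CT83, 3735 ± 504 in HORMAD1, 4628 ± 493 in double and 4084 ± 206 in control libraries (SD, n = 3 each).

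**Figure D1:**
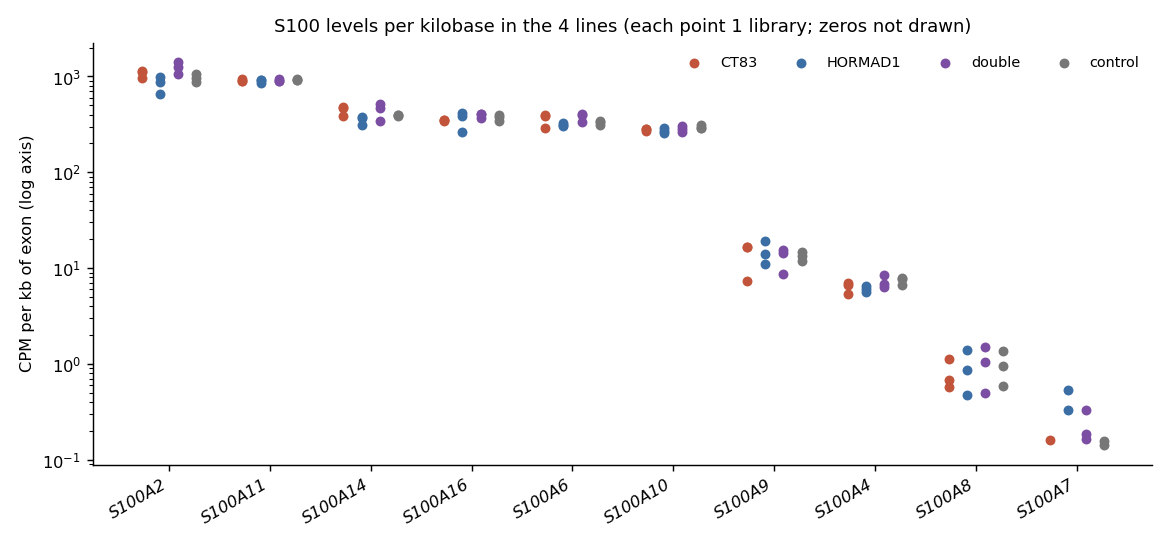
Level of each S100 gene in CPM per kb of exon on a log axis; each point is 1 library and colours mark the CT83, HORMAD1, double and control lines, left to right. S100A2 and S100A11 lie highest, 4 more genes lie between 259.7 and 519 CPM per kb, and S100A9, S100A4, S100A8 and S100A7 lie more than 10-fold below; libraries with 0 counts of S100A7 are not drawn.

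S100A6 (calcyclin, a partner of the ubiquitin adaptor CACYBP) had 389, 375 and 283 CPM in the CT83 libraries, 294, 299 and 317 in the HORMAD1 libraries, 399, 384 and 329 in the double libraries, and 330, 306 and 329 in the control libraries. CT83 replicate 3 was the lowest of the 12. The double libraries lay above the HORMAD1 libraries, and the remaining comparisons overlapped. S100A14, a gene of epithelial surfaces, had 599.9, 615 and 496 CPM in the CT83 libraries, 399, 476 and 480 in the HORMAD1 libraries, 662, 596 and 443 in the double libraries, and 499, 507 and 509.7 in the control libraries. The 3 control libraries differed by little, while the CT83, HORMAD1 and double lines each held 1 library well below the rest of the line.

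S100A16, a widely expressed member, had 597, 589 and 599 CPM in the CT83 libraries, 453, 660.1 and 699 in the HORMAD1 libraries, 689, 687 and 628 in the double libraries, and 643, 583 and 679 in the control libraries. HORMAD1 replicate 1 stood apart from its line. S100A11 (S100C), which binds annexins, kept to the narrowest range of the set. It had 607, 612 and 635 CPM in the CT83 libraries, 579.6, 626 and 625 in the HORMAD1 libraries, 613, 633 and 609 in the double libraries, and 631, 623 and 639 in the control libraries.

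S100A10, the annexin A2 partner, had 413, 434 and 439 CPM in the CT83 libraries, 401, 418 and 446 in the HORMAD1 libraries, 434, 471 and 410.1 in the double libraries, and 448, 476 and 445 in the control libraries. All 3 CT83 libraries lay below all 3 control libraries. S100A4 had 6.77, 7.18 and 5.55 CPM in the CT83 libraries, 6.68, 6.27 and 5.79 in the HORMAD1 libraries, 8.78, 6.58 and 7.05 in the double libraries, and 8.11, 6.82 and 7.84 in the control libraries. Its HORMAD1 libraries lay below its control libraries.

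Of the calprotectin pair, S100A9 had 9.6, 9.6 and 4.21 CPM in the CT83 libraries, 6.41, 10.99 and 8.07 in the HORMAD1 libraries, 8.34, 8.94 and 5.03 in the double libraries, and 7.81, 8.57 and 6.83 in the control libraries. S100A8 was far lower, at 0.686, 1.12 and 0.574 CPM in the CT83 libraries, 0.472, 0.868 and 1.40 in the HORMAD1 libraries, 1.51, 1.05 and 0.503 in the double libraries, and 1.37, 0.962 and 0.59 in the control libraries. These S100A8 values rested on 5 to 18 counts per library, and the lines overlapped for both genes. S100A7 had 0 to 3 counts per library, 1 over the CT83 libraries, 5 over HORMAD1, 4 over double and 2 over control. That is at or under the floor of 3 counts per library (0.202 to 0.302 CPM, counting error only), so no fold is given. S100A7 did not pass the filter on low counts, which left 9 of the 10 genes tested.

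**Figure D2:**
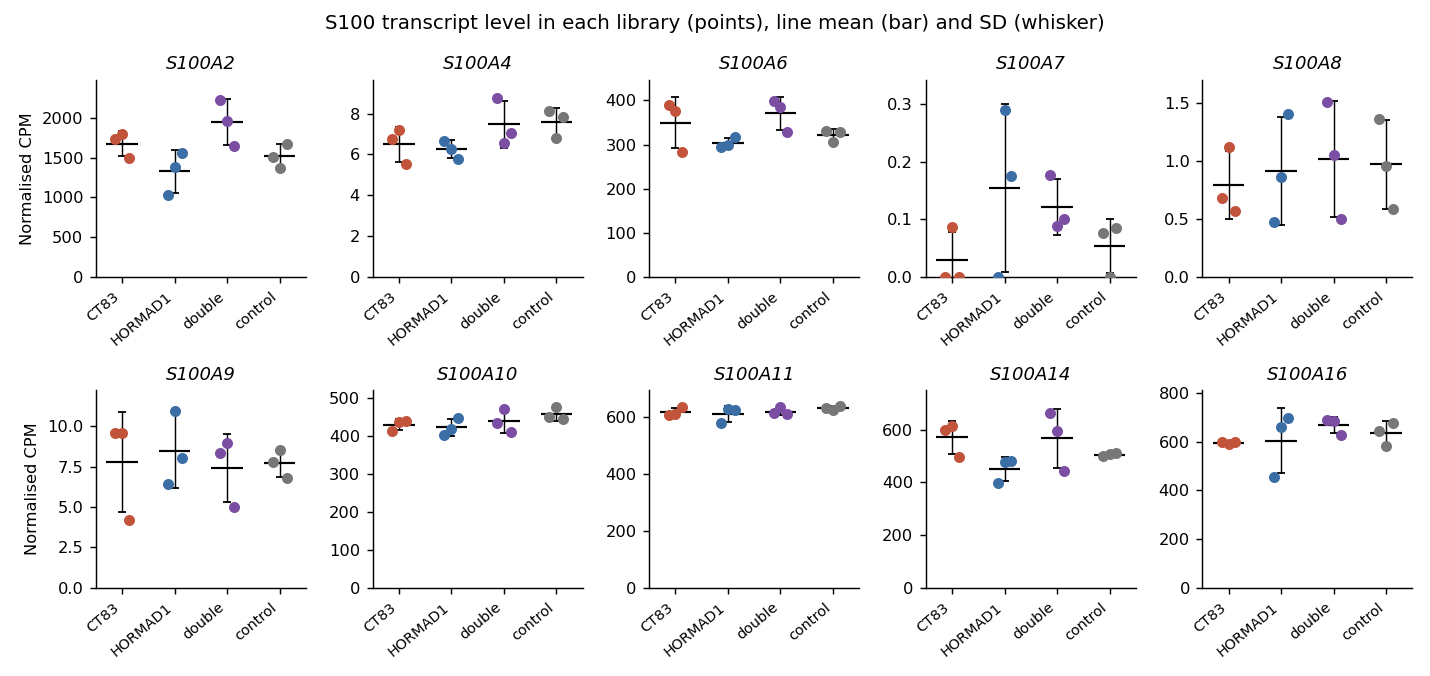
Normalised CPM of each S100 gene, 1 panel a gene with its own axis starting at 0; points are libraries, bars line means and whiskers SD (n = 3). S100A2 reaches 2228 CPM in double replicate 1 and 1034 in HORMAD1 replicate 1, S100A11 stays between 579.6 and 639 CPM, and S100A8 and S100A7 stay under 1.6 CPM.

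Markers of myeloid cells, the usual source of S100A8 and S100A9, were low or at 0. CSF3R and FCGR3B had 0 counts in all 12 libraries, PTPRC, LYZ and MPO at most 2 counts, and the summed level of 8 myeloid markers was 6.79 to 8.9 CPM in CT83, 6.46 to 7.48 in HORMAD1, 6.14 to 9.21 in double and 6.73 to 8.11 in control libraries. Most of that sum was CD14, at 4.03 to 7.98 CPM. CD68 ran between 0.514 and 1.93 CPM (at most 22 counts), and ITGAM reached 6 counts. S100A9 (4.21 to 10.99 CPM) and S100A8 (0.472 to 1.51 CPM) were of like size to CD14 and CD68. A part of myeloid cells in the S100A8 and S100A9 values was not tested. Summed levels of 6 fibroblast markers were 27.1 to 42.8 CPM in CT83, 25.8 to 45.1 in HORMAD1, 36.3 to 86.6 in double and 38.8 to 85.1 in control libraries. DCN, LUM and MFAP5 had at most 14, 13 and 32 counts in any library, while COL1A1 reached 601 counts (60.5 CPM), COL1A2 224 (18.9 CPM) and FAP 303 (17.1 to 22.5 CPM over the libraries).

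In single lines against control, no S100 gene passed edgeR's quasi-likelihood test at a Benjamini-Hochberg adjusted p under 0.05 over all genes. In the CT83 line 0 of 9 were called (0.0064% of all genes tested were). The only gene called there was CT83 itself. Of the 9, 0 had an unadjusted p under 0.05 (2.74% of all genes), and DESeq2 and limma-voom called 0. S100A2 had a log2 fold change of 0.14 (SE 0.15), S100A6 of 0.12 (SE 0.11) and S100A14 of 0.18 (SE 0.13). S100A10 had -0.09 (SE 0.08), and was the 1 gene of 9 whose CT83 libraries all lay below control (5.73% of all genes did). In the HORMAD1 line 0 of 9 were called (0.0064% of all genes, HORMAD1 alone). Of the 9, 0 had an unadjusted p under 0.05 (1.82% of all genes), and both other tools called 0. There 8 of the 9 fold changes were below 0, with a median of -0.12, against a median of 0.005 over all genes. Without the 3 libraries named above, 6 of 9 were below 0, with a median of -0.046. S100A4 (-0.28, SE 0.17) and S100A14 (-0.16, SE 0.13) were the 2 genes whose HORMAD1 libraries all lay below control, as did 3.32% of all genes.

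In the double line against control 0 of 9 were called (0.0256% of all genes, HORMAD1 and CT83 among them), by DESeq2 and limma-voom too. S100A2 was the 1 gene with an unadjusted p under 0.05 (5.56% of all genes in either direction), at 1949 ± 289 CPM in double and 1519 ± 153 CPM in control libraries (SD, n = 3 each). Its log2 fold change was 0.36 (SE 0.15; edgeR unadjusted p = 0.0271, adjusted p = 0.864), with 2 of 3 double libraries above all control libraries. S100A6 followed at 0.21 (SE 0.11) and S100A14 at 0.17 (SE 0.13). S100A8, S100A9 and S100A4 had values of 0.08 (SE 0.49), -0.05 (SE 0.3) and -0.02 (SE 0.17). These 3 comparisons share the control libraries.

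Against the CT83 line, 0 of 9 genes were called in the double line (0.0064% of all genes, HORMAD1 alone). Of the 9, 0 had an unadjusted p under 0.05 (8.05% of all genes), and DESeq2 and limma-voom called 0. S100A16, at 0.17 (SE 0.13), was the 1 gene of 9 whose double libraries all lay above the CT83 libraries, as did 8.86% of all genes. S100A2 had 0.22 (SE 0.15) and S100A11 0.0 (SE 0.07). The CT83 transcript itself stood at 102 ± 15.6 CPM in the double line and 523 ± 175 CPM in the CT83 line (SD, n = 3 each).

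Against the HORMAD1 line, 0 of 9 genes were called in the double line (0.0448% of all genes, CT83 among them), again by all 3 tools. By unadjusted p under 0.05, 3 of 9 were higher (3.45% of all genes) and 0 lower (4.14% of all genes). S100A2 averaged 1949 ± 289 CPM in double and 1328 ± 270 CPM in HORMAD1 libraries (SD, n = 3 each). The log2 fold change was 0.55 (SE 0.15; edgeR unadjusted p = 0.00194, adjusted p = 0.275). S100A6 had 0.29 (SE 0.11; edgeR adjusted p = 0.530) and S100A14 0.33 (SE 0.13; edgeR adjusted p = 0.559). For S100A2 and S100A6 all 3 double libraries lay above all 3 HORMAD1 libraries, 2 of 9 genes, against 6.29% of all genes. Of the 9 fold changes 8 were above 0, with a median of 0.21, against -0.009 over all genes. Without the 3 libraries named above, 5 of 9 were above 0, with a median of 0.02.

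A contrast of both lines with CT83 against both lines without it used 6 libraries on each side. It called 0 of 9 S100 genes (0.032% of all genes, CT83 among them) in edgeR, and 0 in DESeq2 and limma-voom. S100A2, S100A6 and S100A14 were the 3 of 9 with an unadjusted p under 0.05 and a higher value (2.96% of all genes), and 0 were lower (3.24% of all genes). S100A2 averaged 1812 ± 257 CPM with CT83 and 1424 ± 223 CPM without (SD, n = 6 each), a log2 difference of 0.35 (SE 0.1; edgeR unadjusted p = 0.00448, adjusted p = 0.428). S100A6 averaged 360.0 ± 44.8 CPM with CT83 and 312 ± 15.2 without (0.2, SE 0.08; adjusted p = 0.634). S100A14 averaged 569 ± 82.0 CPM with CT83 and 478 ± 41.3 without (0.25, SE 0.09; adjusted p = 0.596). For each of the 3 genes, 4 of 6 libraries with CT83 lay above all 6 libraries without it. The other 6 tested genes had values between -0.08 and 0.03. Summed luminal markers were 2651 to 3189.7 CPM with CT83 and 2968 to 3899.9 CPM without, and the pan-epithelial markers EPCAM and CDH1 428 to 585 CPM with CT83 and 504 to 618 CPM without. The luminal sums of the CT83 (2819 to 3023 CPM) and double (2651 to 3189.7 CPM) libraries all lay below control (3417 to 3899.9 CPM). Of all genes tested, 5.73% lay below control in this way in the CT83 line and 7.83% in the double line. Most of the luminal sum was KRT8 (1766 to 2659 CPM over the libraries) and KRT18 (868 to 1255 CPM), so it says little about ELF3, GATA3 and KRT19. The double libraries also lay below control in the pan-epithelial sum (428 to 505 against 558 to 600.1 CPM). Basal marker sums were 6587 to 7976 CPM with CT83 and 5352 to 7929 CPM without. The part of cell-type makeup in the S100 values was not tested.

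A like contrast for HORMAD1 set the HORMAD1 and double lines against the CT83 and control lines. It called 0 of 9 (0.0064% of all genes, HORMAD1 alone). Of the 9, 0 had an unadjusted p under 0.05 (3.73% of all genes), and the other tools called 0. S100A2 had 0.01 (SE 0.1) and S100A6 0.0 (SE 0.08). The interaction, which asks whether the double line departs from the sum of both single lines on the log2 scale, called 0 of 9 (0.0% of all genes) and had 0 of 9 at an unadjusted p under 0.05 (4.5% of all genes), and DESeq2 and limma-voom called 0. S100A4 had 0.48 (SE 0.24) and S100A2 0.41 (SE 0.21), the lowest unadjusted edgeR p-values there (0.066 and 0.0654). The CT83 transcript stood at 102 CPM in the double line and 523 CPM in the CT83 line. The interaction therefore does not compare equal CT83 levels, and the contrast of lines with CT83 against lines without pools both levels. With a median SE of 0.15 between lines, 0.11 for the 6 against 6 contrasts and 0.22 for the interaction over all genes, small differences were not detectable.

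**Figure D3:**
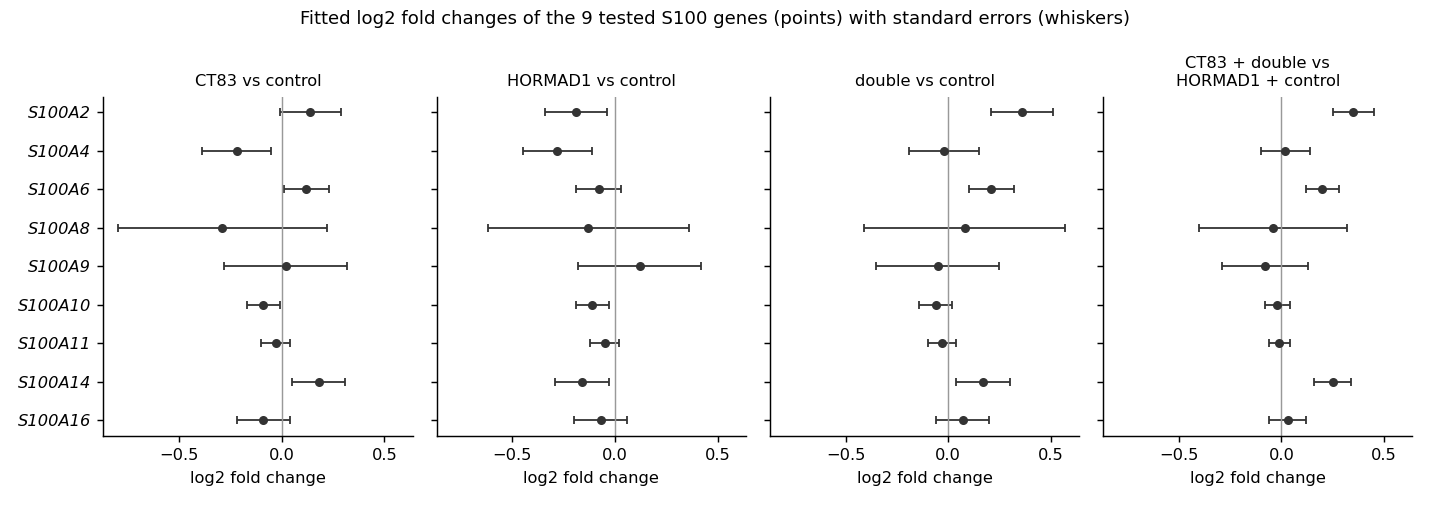
Log2 fold change of each of the 9 tested S100 genes (points) with its standard error (whiskers) in each transgene line against control, and in both lines with CT83 against both lines without. In the rightmost panel S100A2 (0.35), S100A14 (0.25) and S100A6 (0.2) lie above 0 by more than 2 standard errors and the other genes lie between -0.08 and 0.03; none passed the adjusted threshold.

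Among libraries of the same line, 5 of the 9 tested S100 genes had a level that fell as the trend on transcript length rose, at an unadjusted permutation p under 0.05, as did 16.5% of all genes tested. The trend was fitted over all genes, and the longest transcripts of the 9 genes were short (577 to 1218 bases). By this definition short transcripts tend to be lower where the trend is higher, so the negative sign was partly built in. The 16.5% covers genes of all lengths, and a share for genes of similar length was not computed. That trend is the slope of log2 CPM on log2 transcript length over all tested genes in a library, relative to the mean of the 12, and ran between -0.044 in double replicate 1 and 0.056 in HORMAD1 replicate 1. After each line's mean was subtracted, S100A2 had Pearson's r of -0.94 with the slope (exact permutation within lines, two-sided p = 0.00154, adjusted p = 0.00694 over 9 relations) and Spearman's rho of -0.9 (p = 0.00309, adjusted p = 0.0278) over 12 libraries. Without the 2 libraries farthest from the median slope, r was -0.91. S100A6 had r of -0.79 (exact permutation p = 0.00154, adjusted p = 0.00694; rho -0.76, p = 0.00772, adjusted p = 0.0347; r of -0.82 without 2). S100A14 had r of -0.8 (exact permutation p = 0.0123, adjusted p = 0.0278; rho -0.74, p = 0.0247, adjusted p = 0.0556; r of -0.72 without 2), and S100A16 r of -0.79 (exact permutation p = 0.0116, adjusted p = 0.0278; rho -0.71, p = 0.0216, adjusted p = 0.0556; r of -0.79 without 2). An r of -0.79 or lower was found for 4 of the 9 genes and for 10.4% of all genes tested, which again cover all lengths.

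S100A9 had r of -0.71 and S100A8 of -0.65, with adjusted exact permutation p of 0.0875 and 0.0972 (rho of -0.59 for each, adjusted p = 0.219 and 0.194). Without the 2 farthest libraries these were -0.46 and -0.49. S100A11 (r of -0.41, rho of -0.21), S100A4 (r of -0.37, rho of -0.31) and S100A10 (r of -0.2, rho of -0.16) had adjusted exact permutation p-values between 0.369 and 0.681. The slope ran between -0.044 and 0.004 in double, between -0.024 and 0.056 in HORMAD1, between -0.016 and 0.05 in CT83 and between -0.012 and 0.027 in control libraries. With a length correction of each library, the contrast of lines with CT83 against lines without gave 0.32 for S100A2, 0.18 for S100A6 and 0.22 for S100A14 on the log2 scale (edgeR adjusted p = 0.479, 0.817 and 0.693).

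**Figure D4:**
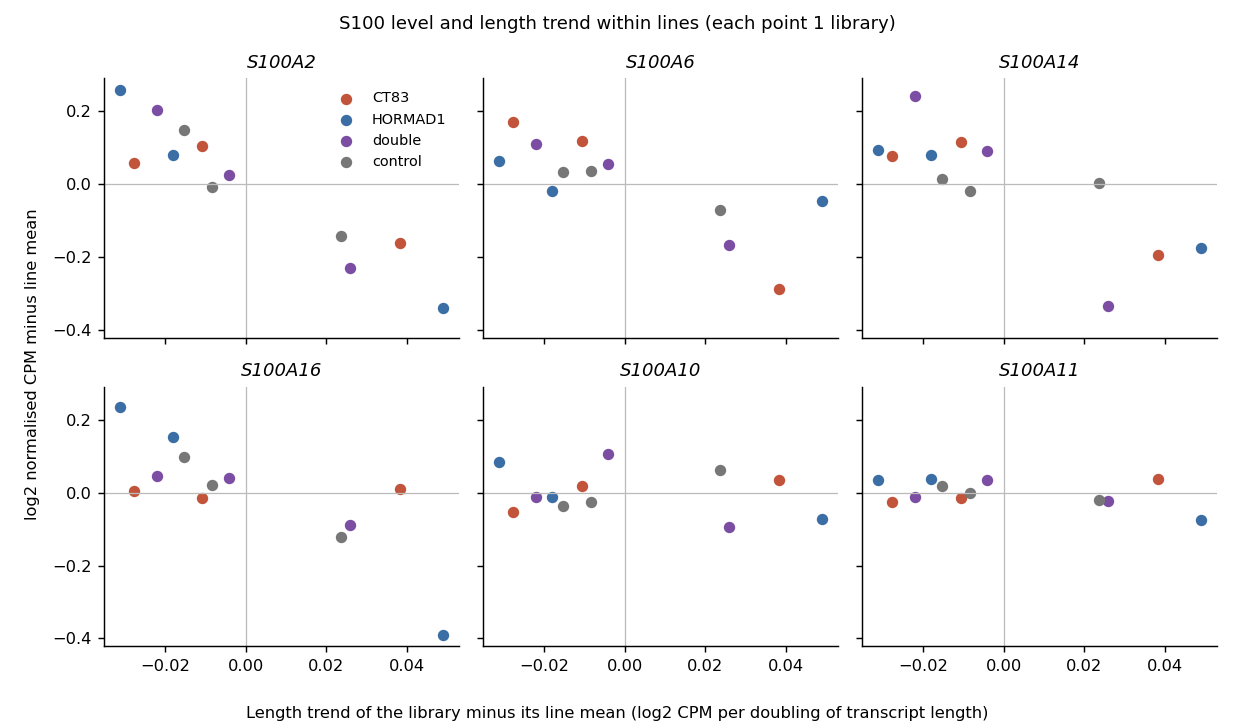
Log2 normalised CPM of 6 S100 genes (vertical axis) against the length trend of the library (horizontal axis), each minus its line mean; each point is 1 of 12 libraries, coloured by line. S100A2 falls most steadily with the trend (r of -0.94), S100A6, S100A14 and S100A16 less so (-0.79, -0.8 and -0.79), and S100A10 and S100A11 little (-0.2 and -0.41).

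When the 3 libraries with the most positive trends were left out together, S100A6 passed the test in the contrast of lines with CT83 against lines without, with a log2 difference of 0.24 (SE 0.05; edgeR adjusted p = 0.00874). The libraries still overlapped, at 329 to 399 CPM over 5 libraries with CT83 and 299 to 329.7 CPM over 4 without. Each library left out had held the lowest S100A6 level of its line (283 CPM in CT83, 294 in HORMAD1 and 306 in control). The CT83 value was also the lowest of all 12 libraries. Without CT83 replicate 3 alone the log2 difference was 0.27. Without the 3 libraries S100A6 also passed in the double line against the HORMAD1 line, at 0.27 (SE 0.07; edgeR adjusted p = 0.0494). In these fits without the 3 libraries 4.86% and 2.16% of all genes were called. S100A2 had 0.27 (SE 0.09; edgeR adjusted p = 0.141) and S100A14 0.26 (SE 0.11; edgeR adjusted p = 0.297) in the first of these contrasts. With these libraries gone the CT83, HORMAD1 and control lines had 2 libraries each. No other S100 gene passed in any of the 8 comparisons.

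Antisense entries lie across S100A6 and S100A11, and the strand setting of the counting is not given in the sources used here. One of them, ENSG00000238279.2, lies on the plus strand over S100A6 (chr1:153534599-153536244, minus strand) and held 2922 to 4274 counts per library, between 0.92 and 0.986 of the S100A6 count. The other, ENSG00000229021.2, over S100A11 (chr1:152032506-152047907, minus strand), held 6080 to 8647 counts, between 0.941 and 1.07 of the S100A11 count. In GENCODE 29 the exons of the first share 23 bases with S100A6 exons, and those of the other share 0 bases with S100A11 exons. The annotation behind the counts is not known, so reads of a gene and of its antisense partner cannot be told apart here, and the absolute levels of S100A6 and S100A11 are uncertain. With each antisense entry added to its gene, S100A6 stood at 681 ± 103 CPM in CT83, 594 ± 31.1 in HORMAD1, 725 ± 64.9 in double and 626 ± 26.8 in control libraries (SD, n = 3 each). The log2 difference between lines with and without CT83 was 0.2 (SE 0.08; edgeR adjusted p = 0.618). S100A11 with its entry added had 0.0 (SE 0.05) in that contrast. S100A3, which lies within S100A4 on the same strand, had 0 counts in every library.

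Correlations between S100 genes were mostly positive. Over the 12 libraries, 34 of 36 pairs of tested S100 genes had a correlation of log2 CPM above 0, with a median of 0.4. The libraries differed in depth and length trend, which all genes of a library have in common. Over all pairs of tested genes 49.9% were above 0, with a median of 0.0. The closest pairs were S100A2 with S100A14 (0.86), S100A6 with S100A14 (0.85) and S100A2 with S100A6 (0.83). After line means were subtracted, 32 of 36 were above 0, with a median of 0.48. S100A11 and S100A16 (0.85) and S100A2 and S100A16 (0.85) then led, while S100A4 with S100A10 stood at -0.53. S100A8 and S100A9, whose proteins pair, had 0.58 over the libraries and 0.61 within lines.

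Among tested genes with a symbol, those most like S100A2 over the 12 libraries by Pearson's r of log2 CPM were VPS25 (0.97), MRPS23 (0.96) and PNLIPRP3 (0.94), and within lines TATDN1, ANXA1 and PRDX4 (0.98 each). For S100A6 they were SUMO2P17 (0.96), DMAC1 (0.95) and UBAC2 (0.95), and for S100A14 they were NCBP2AS2 (0.94), DNAH14 (0.92) and SRPX (0.92). S100A16 was most like AUP1 (0.98), TUBA4A (0.98) and TIMM10 (0.97), and S100A11 most like KRT16, a keratin of activated epidermis, at 0.96, with PRKAR1B and PDK1-AS1 at 0.95. S100A10 was nearest to BCS1L (0.92), SDF2L1 (0.88) and CEBPZOS (0.86). S100A9 was nearest to ARRB2 (0.93), PEX16 (0.92) and EXOC6 (0.9), S100A8 to LAP3 (0.89), RP9 (0.89) and AKIP1 (0.88), and S100A4 to C2orf49 (0.86), NME2P1 (0.83) and IFTAP (0.83). Entries without a symbol were left out of this search, among them the antisense entries over S100A6 and S100A11. None of these nearest genes was another of the S100 genes described here. Each was picked as highest out of many candidates over only 12 libraries. How high such values run from the search alone was not tested.

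Of 11 further S100 genes, 3 were expressed enough to test. In edgeR, DESeq2 and limma-voom 0 were called in any comparison, and at most 1 of 3 (S100A13) had an unadjusted edgeR p under 0.05 in 1 comparison, in the double line against HORMAD1 (3.45% of all genes higher) and in lines with CT83 against lines without (2.96%). S100A13, which helps release of cytokines that lack a signal peptide, averaged 28.6 ± 3.42 CPM in CT83, 26.6 ± 2.05 in HORMAD1, 33.2 ± 3.87 in double and 27.98 ± 1.05 in control libraries (SD, n = 3 each). Its double libraries all lay above control (0.25, SE 0.12; edgeR adjusted p = 0.886), as for 7.61% of all genes, and above HORMAD1 (0.32, SE 0.12; edgeR adjusted p = 0.522), as for 6.29%. S100A1, a muscle calcium sensor, averaged 1.56 ± 0.392 CPM in CT83, 1.59 ± 0.143 in HORMAD1, 1.23 ± 0.179 in double and 1.81 ± 0.332 in control libraries, and its double libraries all lay below control (-0.55, SE 0.3; edgeR adjusted p = 0.900), as for 7.83% of all genes. S100A1 and S100A13 overlap on opposite strands, so their reads are uncertain too. S100P, which lies outside the cluster, averaged 5.78 ± 1.0 CPM in CT83, 5.49 ± 0.451 in HORMAD1, 4.66 ± 1.09 in double and 5.96 ± 0.719 in control libraries.

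Of 17 genes for S100 partners and receptors, 15 were tested and 0 were called in any comparison by edgeR, DESeq2 or limma-voom. At most 2 of 15 had an unadjusted edgeR p under 0.05 in 1 comparison, the double line against CT83. Both were higher, and over all 15616 genes 498 were higher at that threshold (8.05% were in either direction). ANXA2, which holds S100A10, averaged 3724 ± 272 CPM in double and 3259 ± 240.1 CPM in CT83 libraries (SD, n = 3 each; log2 0.19, SE 0.11). ANXA5, another annexin, averaged 584 ± 14.5 CPM in double and 478 ± 18.6 CPM in CT83 libraries (0.29, SE 0.1; edgeR unadjusted p = 0.0121, adjusted p = 0.585). ANXA6 averaged 17.7 ± 1.05 CPM in double and 13.2 ± 2.36 CPM in CT83 libraries (0.43, SE 0.19). For ANXA2, ANXA5, ANXA6 and SUGT1, 4 of the 15, all double libraries lay above all CT83 libraries, as for 8.86% of all genes. In the double line against the CT83 line 11 of the 15 were above 0, with a median of 0.099, against -0.001 over all genes. Without the 3 libraries of most positive length trend, 9 of 15 were above 0 there, with a median of 0.074, and ANXA5 was called there (0.26; edgeR adjusted p = 0.048) and PLAT, the tissue plasminogen activator, in lines with CT83 against lines without (0.3; edgeR adjusted p = 0.00827), where 0.466% and 4.86% of all genes were called.

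Of 14 genes for inducers of S100A8 and S100A9 and their signalling, 10 were tested and 0 were called in any comparison by any of the 3 tools, with at most 2 of 10 at an unadjusted edgeR p under 0.05 in 1 comparison, the double line against HORMAD1 (both lower, 4.14% of all genes) and the interaction (4.5% of all genes). IL6 averaged 4.44 ± 1.45 CPM in CT83 and 8.44 ± 0.641 CPM in control libraries (SD, n = 3 each; log2 -0.93, SE 0.29; edgeR unadjusted p = 0.00652, adjusted p = 0.984). IL1A averaged 187 ± 13.5 CPM in HORMAD1 and 139.6 ± 6.68 CPM in control libraries (0.43, SE 0.1; edgeR unadjusted p = 0.000897, adjusted p = 1.0). STAT3, the factor downstream of several of these cytokines, averaged 107 ± 3.53 CPM with CT83 and 118 ± 3.48 CPM without (SD, n = 6 each; -0.15, SE 0.05; edgeR unadjusted p = 0.00839, adjusted p = 0.523). S100A8 and S100A9 stood at 0.794 ± 0.291 and 7.8 ± 3.11 CPM in CT83, 0.915 ± 0.468 and 8.49 ± 2.32 in HORMAD1 and 0.972 ± 0.388 and 7.73 ± 0.874 in control libraries, overlapping throughout. Without the 3 libraries of most positive length trend, IL6 (-1.22; edgeR adjusted p = 0.0304) and CEBPB, a C/EBP factor (0.34; edgeR adjusted p = 0.0399), were called in the CT83 line against control, where 0.76% of all genes were. CEBPB was then also called in the double line against the CT83 line (-0.39; edgeR adjusted p = 0.0113; 0.466% of all genes) and in lines with HORMAD1 against lines without (-0.29; edgeR adjusted p = 0.046; 0.0319% of all genes). In lines with CT83 against lines without, IL6 (-0.65; edgeR adjusted p = 0.029) and CEBPB (0.24; edgeR adjusted p = 0.0121) were called, beside 4.86% of all genes.

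Of 18 genes for epidermal differentiation, 11 were tested and 0 were called in any comparison by any of the 3 tools. At most 2 of 11 had an unadjusted edgeR p under 0.05 in 1 comparison, lines with HORMAD1 against lines without. Both were lower, and over all 15616 genes 322 were lower at that threshold (3.73% were in either direction). IVL (involucrin, a cornified envelope protein) averaged 3.22 ± 1.1 CPM in double and 7.24 ± 4.61 CPM in CT83 libraries (SD, n = 3 each; log2 -1.16, SE 0.48; edgeR unadjusted p = 0.0348, adjusted p = 0.585). SPRR2D, of the small proline-rich envelope proteins, averaged 1.99 ± 0.618 CPM with CT83 and 3.36 ± 1.27 CPM without (SD, n = 6 each; -0.74, SE 0.28; edgeR unadjusted p = 0.0182, adjusted p = 0.634). Without the 3 libraries of most positive length trend it was called there, at -1.06 (edgeR adjusted p = 0.00734; 4.86% of all genes), and in the double line against HORMAD1, at -1.41 (edgeR adjusted p = 0.0104; 2.16% of all genes). In lines with HORMAD1 against lines without, 10 of the 11 were below 0, with a median of -0.35, against 0.003 over all genes. Without those 3 libraries 8 of 11 were below 0, with a median of -0.16.

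The S100 genes span an interval of 2.13 Mb with 250 kb added at each side, which holds 117 other genes in GENCODE 29, of which 24 were tested, S100A1, S100A13 and both antisense entries among them. Of the 24, 0 were called in any comparison by any of the 3 tools, with at most 4 at an unadjusted edgeR p under 0.05 in 1 comparison, the double line against HORMAD1 (3 higher and 1 lower, against 3.45% and 4.14% of all genes). In lines with CT83 against lines without, 19 of the 24 were above 0, with a median of 0.055, against 0.017 for the 9 S100 genes and -0.001 over all genes. In the double line against the HORMAD1 line, 17 of the 24 were above 0 with a median of 0.14. Without the 3 libraries of most positive length trend these were 12 of 24 with a median of 0.002 and 16 of 24 with a median of 0.058. SPRR2D was then called in both contrasts, as given above, and the S100A6 antisense entry in the first (0.21; edgeR adjusted p = 0.0134). SNAPIN, of the machinery for vesicle fusion, averaged 45.5 ± 1.05 CPM in double and 34.8 ± 4.04 CPM in CT83 libraries (SD, n = 3 each; 0.38, SE 0.13; edgeR unadjusted p = 0.00853, adjusted p = 0.585), and overlaps ILF2 on the opposite strand. THEM4, a thioesterase gene, averaged 13.7 ± 0.898 CPM in double and 10.9 ± 0.861 CPM in HORMAD1 libraries (0.33, SE 0.14; edgeR adjusted p = 0.582).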

How the data were processed

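Polyadenylated RNA of 12 libraries was measured by RNA sequencing. Per the labels' protocols, RNA was column-purified, ERCC spike-in RNA was added, and NEBNext Ultra libraries were made. Tools named in the submitters' processing notes were Trimmomatic 0.39, STAR 2.7.5c, SAMtools and Picard, beside the builds hg38 and hg19, whose use is not told apart. How reads were assigned to genes, with which annotation and strand setting, is not given in the sources used here. Each library's deposited values were expected counts (estimated counts that need not be whole) for 61533 entries, of which 61415 IDs matched a symbol table and 58356 are in GENCODE 29, the source of the GRCh38 coordinates and lengths. The files held 0 ERCC entries.

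The design had assumed raw counts, so values were rounded to the nearest integer (6.75% of them changed). The labels gave each sample's line. Under R 4.3.3, edgeR 4.0.16 filtered genes with filterByExpr at a minimum count of 10, leaving 15616, scaled by TMM and fitted a robust quasi-likelihood model with a mean for each line (8 residual degrees of freedom). Calls needed a Benjamini-Hochberg adjusted p under 0.05 over all tested genes, in each of 8 comparisons. Normalised CPM used TMM, and log2 CPM per library a prior count of 2. DESeq2 1.42.0 and limma-voom 3.58.1 were alternatives, with those listed in the closing section. The fit was tested on simulated data.

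The S100 genes and all lists were chosen with earlier results of these data known. By the naming rule, all 10 S100 genes, tested genes of the rest of the family, up to 4 genes with the smallest unadjusted p of each further list and comparison, and the 3 genes with a symbol most like each S100 gene could be named. Same-numbered libraries of different lines had correlations of their deviations between -0.354 and 0.351, so the numbers were not taken to pair them. Replicates of a line differed beyond sampling noise (chi-square per degree of freedom 2.54 to 26.4). Protein sequences were not used here. Counting floors of 3 counts cover counting error only.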

Additional observations from a re-analysis of the deposited data

How the results depend on the processing

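Over 25 alternatives, 1773 fold changes of S100 genes were recomputed. Of these, 1659 had the sign of the reported value, 114 uncalled values had the opposite sign, 2 were called in the alternative only and 0 called results turned direction. The alternatives were other scalings (DESeq2 size factors, upper quartile, library size alone), 2 other low-count filters, DESeq2, limma-voom, a length correction, the replicate block with and without it, only the groups compared, each of the 12 libraries left out, the 3 long-transcript libraries left out together, and, chosen after seeing the data, antisense entries added to S100A6 and S100A11; leaving out the 3 libraries was likewise extended to the gene lists after seeing the data. Only the removal of the 3 long-transcript libraries changed the number of S100 genes called: 1 in place of 0 in the double line against HORMAD1 and 1 in place of 0 in lines with CT83 against lines without, S100A6 each time, and the cause was not tested. With any single library left out the number called was 0 to 0 in all 8 comparisons. For S100A2 in lines with CT83 against lines without, the log2 difference ran between 0.27 and 0.41 over all alternatives (adjusted p between 0.141 and 0.970), for S100A6 between 0.16 and 0.27 (0.00874 to 1.0) and for S100A14 between 0.19 and 0.33 (0.223 to 1.0).

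With the replicate number as a block, S100A2 had 0.35, S100A6 0.2 and S100A14 0.24 in that contrast (edgeR adjusted p = 0.563, 0.703 and 0.660), and the block changed no call of an S100 gene. A fit of only the groups compared was not run for the interaction and the 6 against 6 contrasts, which use all lines. Of 40 levels (10 genes in 4 lines), library size alone moved 1 and the longest transcript 27 by more than 1 SD. Counts of 5 to 18 limit S100A8 and counts of 0 to 3 limit S100A7.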
